A study of Rattus norvegicus with 4 samples.

Results

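The insulin-like growth factor (IGF) system was described in primary cultures of embryonic rat hippocampal neurons, from their poly(A) RNA. Its genes were the ligands Igf1 and Igf2, the receptors Igf1r and Igf2r, and the binding proteins Igfbp2, Igfbp3, Igfbp4 and Igfbp5, 8 of the 14497 genes tested. They were taken by exact gene symbol from the array's annotation, and each had 1 probe set, so no choice between probe sets was needed. In each group 2 cultures were studied on 1 array each, transduced with Gld2 shRNA (knockdown cultures) or with scrambled shRNA (control cultures). Gld2 (gene symbol Tent2) is a cytoplasmic poly(A) polymerase, and the title states that poly(A) RNA was profiled upon its knockdown. The RNA was recovered by heat from poly(U) Sepharose, a resin that binds poly(A) tails, so that less of a transcript and poorer recovery of it through its tail cannot be told apart. The labels name no rat strain, culture age, time after transduction or promoter of the shRNA. Nor do they say whether cultures of 1 group came from different animals or platings, and the spread behind each p-value may therefore be technical. Whether the arrays hold all or part of the RNA recovered from the resin is not stated either.

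IGF1 and IGF2 are secreted growth factors that act through the IGF1 receptor, a tyrosine kinase which signals through PI3 kinase with AKT and through the RAS and MAP kinase path. The IGF2 receptor, also the cation-independent mannose 6-phosphate receptor, takes up IGF2 for degradation and carries lysosomal enzymes. Binding proteins hold IGFs outside the cell, where they can block or prolong their action, and proteases such as pappalysin release the ligand again. In brain IGF1 is known from some neurons, GABAergic interneurons among them, and from microglia, whereas IGF2 and IGFBP2 are known from choroid plexus, meninges and, for IGFBP2, astrocytes.

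Promoter sequences are shown for Igf1, the member past the significance threshold, and for Igfbp2 and Igfbp5, which lie next to each other on chromosome 9 and whose values differed in opposite directions. In the RefSeq gene table of assembly GRCr8 these neighbours are on opposite strands with their ends facing and 0 genes between them. RefSeq promoter windows of GRCr8, from 250 bases before to 50 after the start site, were found for 8 of 8 genes, with 2 start sites for Igf2 and so 9 windows in all. The strand of each gene is given, the sequences run 5′ to 3′ along it, and capitals mark matches to any of 5 searched motifs.
Igf1, chr7:24172282-24172581, plus strand: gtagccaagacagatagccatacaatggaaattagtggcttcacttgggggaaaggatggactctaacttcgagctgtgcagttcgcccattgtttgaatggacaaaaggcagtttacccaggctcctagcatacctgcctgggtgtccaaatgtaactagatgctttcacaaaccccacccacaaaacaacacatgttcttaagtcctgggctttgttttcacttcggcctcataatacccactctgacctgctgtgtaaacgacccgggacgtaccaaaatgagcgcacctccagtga
Igfbp2, chr9:81864561-81864860, plus strand: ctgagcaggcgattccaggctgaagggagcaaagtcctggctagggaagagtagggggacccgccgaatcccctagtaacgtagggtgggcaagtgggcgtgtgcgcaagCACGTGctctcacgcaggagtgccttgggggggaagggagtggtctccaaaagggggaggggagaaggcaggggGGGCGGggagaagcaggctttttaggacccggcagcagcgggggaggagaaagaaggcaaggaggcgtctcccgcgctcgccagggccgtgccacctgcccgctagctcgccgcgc
Igfbp5, chr9:81914138-81914437, minus strand: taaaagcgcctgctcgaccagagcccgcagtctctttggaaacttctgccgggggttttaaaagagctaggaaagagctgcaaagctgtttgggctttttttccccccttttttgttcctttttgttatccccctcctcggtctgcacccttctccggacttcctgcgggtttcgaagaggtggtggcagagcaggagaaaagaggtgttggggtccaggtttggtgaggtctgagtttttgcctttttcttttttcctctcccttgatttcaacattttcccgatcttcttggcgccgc

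The motifs were searched on both strands as exact letters. The GC box GGGCGG was found in 5 of the 9 windows, against 33.1% of the 33469 promoter windows of the table. The E-box CACGTG was found in 3 of 9, in Igf1r, Igf2r and Igfbp2, against 6.42% of all windows. The TATA box TATAAA was found in 1, that of Igfbp4, against 14.2%. The STAT motif TTCNNNGAA was in 0 of 9 windows, against 8.87%. The interferon response core, a pair of GAAA runs with NN between them, searched because of the interferon-induced gene Ifit3 (log2 difference 4.16, adjusted p = 0.000159 in limma), a single gene chosen after its value was seen, was in 0 of 9 windows, against 3.92%. The windows of Igf1, Igfbp3 and Igfbp5, the members with the most negative differences, held none of the 5 motifs, and that of Igfbp2 held 1 E-box and 1 GC box. A match is a run of letters and not a binding site, and a missing match says only that these letters are not in this window. GC content was 48.3% in Igf1 and 50.7% in Igfbp5, the lowest of the 9 windows, against 66.7% in Igfbp2.

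Deposited values are on the log2 scale after RMA, which corrects background, puts arrays on a common scale and combines the probes of each set into 1 value. The array medians were 8.41 to 8.48. The targeted transcript Tent2 stood at 9.50 and 9.35 in the knockdown cultures and at 10.73 and 10.67 in the control cultures, a fold of 0.411 (adjusted p = 0.000754 in limma). The difference between the groups was tested in limma across all genes with Benjamini-Hochberg adjustment, and a gene was called past the threshold at an adjusted p under 0.05. By that rule 594 genes, 4.1%, were called, 245 higher and 349 lower in the knockdown cultures. Markers of neurons stood near the top of the array's range, at percentiles 93.8 to 99.6 of the genes by level. Those of astrocytes ran from percentile 49.2 to 99.5. The astrocyte marker Gfap was at 13.30 and 13.28 in the knockdown cultures and at 13.19 and 13.18 in the control cultures. Slc17a7, the vesicular glutamate transporter of excitatory neurons, stood at 13.35 and 13.37 in the knockdown cultures and 13.35 and 13.34 in the control cultures, and Snap25, a synaptic fusion protein, had a log2 difference of -0.01.

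Of the 8 IGF system genes, 1 fell, Igf1, 0 rose and 7 did not pass, against 4.1% of all genes called. At an unadjusted p under 0.05 in limma there were 4, with 3 lower (Igf1, Igfbp3 and Igfbp5) and 1 higher (Igfbp2), against 25.4% of all genes, 16.2% lower and 9.24% higher. Both knockdown cultures lay below both controls for 5 members and above them for 1, against 34.5% and 24% of all genes, and groups that did not overlap (6 of 8 members, against 58.5% of all genes) were common over the whole array. The median log2 difference of the members was -0.12, against -0.02 over all genes, and the median size without its sign was 0.17, against 0.11.

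**Figure D1:**
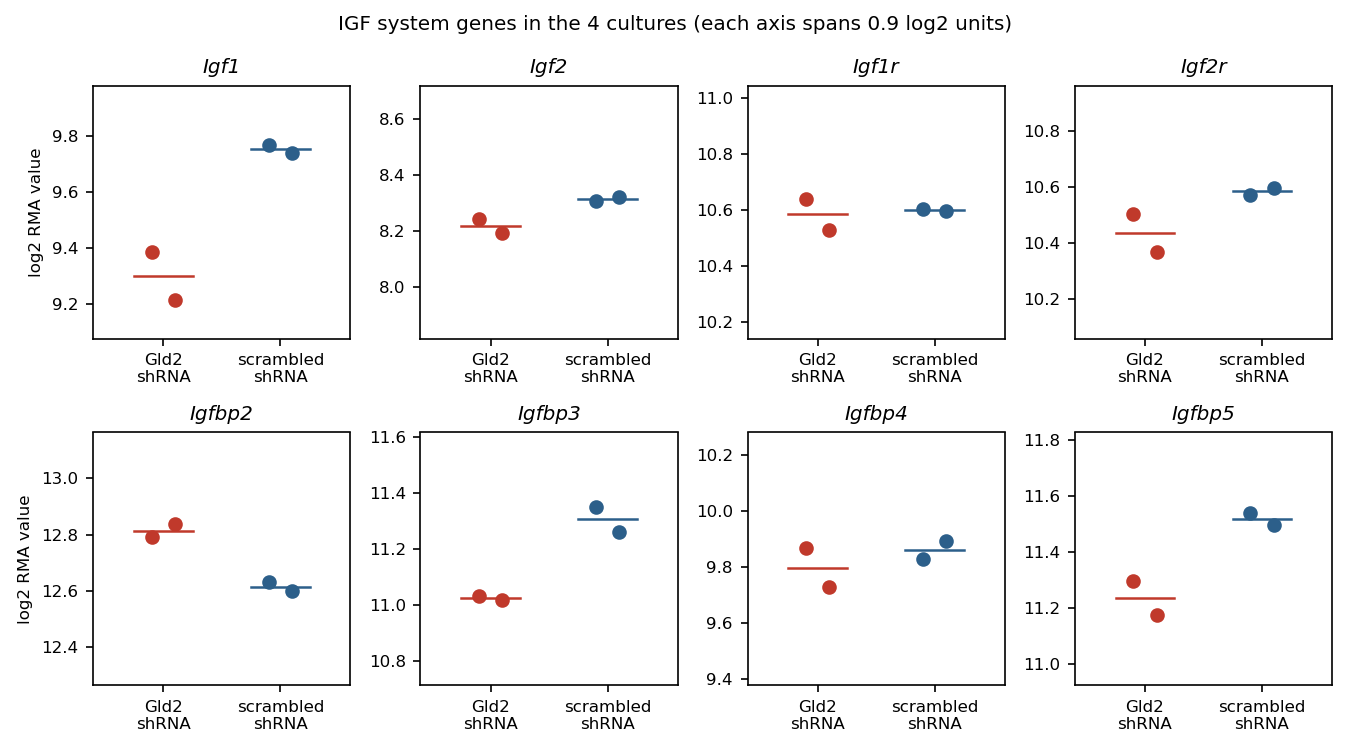
Log2 RMA values of the 8 IGF system genes in each culture (points) with the group mean (line), Gld2 shRNA on the left and scrambled shRNA on the right of each panel, and every axis spanning the same width. The 2 Igf1 points of the Gld2 shRNA cultures (9.39 and 9.22) lie below those of the scrambled shRNA cultures (9.77 and 9.74), Igfbp2 is the member whose Gld2 shRNA points lie above, and Igf1r and Igfbp4 overlap.

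Igf1, which encodes the main IGF1 receptor ligand, fell. Igf1 (probe set 10894695) stood at 9.39 and 9.22 in the knockdown cultures, against 9.77 and 9.74 in the control cultures. The nearest cultures of the groups were 0.352 apart, more than the gap of 0.171 between the knockdown cultures and of 0.0301 between the controls. The means were 9.30 ± 0.121 in the knockdown cultures and 9.75 ± 0.0213 in the control cultures (SD, n = 2 each), which differ by -0.45 on the log2 scale (standard error 0.0773, 95% confidence interval -0.64 to -0.26). Igf1 was at 73.1% of the control level (adjusted p = 0.0394 in limma). Fewer cells that make Igf1 and less Igf1 RNA per cell cannot be told apart in such cultures. The call rested on all 4 cultures but Gld2 shRNA replicate 1: in limma the adjusted p was 0.0172 without that culture, 0.0772 without Gld2 shRNA replicate 2, 0.312 without scrambled shRNA replicate 1 and 0.253 without scrambled shRNA replicate 2, with log2 differences from -0.54 to -0.37. It was also lost with all probe sets in the test, named or not (adjusted p = 0.0886), without moderation across genes (0.301) and with arrays centred on the median of named genes (0.0667), in limma.

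Igf2, the other ligand, expressed from 1 parental allele in many tissues, stood at 8.25 and 8.19 in the knockdown cultures and at 8.31 and 8.32 in the control cultures. The groups did not overlap, but their nearest cultures were only 0.0636 apart. The log2 difference was -0.10, and the 95% interval ran from -0.25 to 0.05 (adjusted p = 0.356 in limma), which takes in no change as well as a fall of the size of 0.25. Its mean level lay at percentile 35.7 of the genes on the array, the lowest of the 8 members.

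Neither receptor passed the test. Igf1r, the signalling receptor for both ligands, stood at 10.64 and 10.53 in the knockdown cultures, on either side of the 10.60 and 10.59 of the control cultures. Its log2 difference was -0.02, and the 95% interval ran from -0.18 to 0.15 (adjusted p = 0.899 in limma), an interval that does not reach the estimate for Igf1. Its sign turned with cyclic loess normalization (0.07), with the length trend removed (0.13), with centring on named genes (0.05) and without Gld2 shRNA replicate 2 (0.04). Igf2r stood at 10.50 and 10.37 in the knockdown cultures and at 10.57 and 10.60 in the control cultures. The groups lay 0.0699 apart, less than the 0.134 between the knockdown cultures, and the log2 difference was -0.15 (95% interval -0.32 to 0.02, adjusted p = 0.243 in limma).

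The binding proteins had values on both sides of 0, and none of the 4 passed the test over all genes. Igfbp2, abundant in glia and choroid plexus of the developing brain, stood at 12.79 and 12.84 in the knockdown cultures and at 12.63 and 12.60 in the control cultures. It was the only member with both knockdown cultures above both controls, with a gap of 0.160 between the groups against 0.0475 within the knockdown cultures. The log2 difference was 0.20 (95% interval 0.05 to 0.35, adjusted p = 0.123 in limma). Igfbp2 passed the threshold in 2 of the 14 alternatives of processing. In limma the adjusted p was 0.00111 with a level-dependent prior variance and 0.0285 among genes above the median level. Calls over all genes were also more in these settings, at 2232 and at 1596 of the 7249 genes kept, against 594.

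Igfbp3, the main carrier of IGFs in serum, stood at 11.03 and 11.02 in the knockdown cultures and at 11.35 and 11.26 in the control cultures. The knockdown cultures differed from each other by 0.0164, the closest agreement of the 8 members, and lay 0.228 below the nearer control. The log2 difference was -0.28, and the 95% interval ran from -0.44 to -0.12 (adjusted p = 0.0733 in limma), or 82.3% of the control level. Igfbp5, a binding protein that also attaches to extracellular matrix, stood at 11.30 and 11.18 in the knockdown cultures and at 11.54 and 11.50 in the control cultures. Its groups lay 0.201 apart, and its log2 difference was also -0.28 (95% interval -0.45 to -0.11, adjusted p = 0.0833 in limma). Igfbp3 passed the threshold in 4 of the 14 alternatives of processing and Igfbp5 in 5. In limma the adjusted p was 0.00136 for each with a level-dependent prior variance. With arrays centred on their medians over all probe sets it was 0.0196 for Igfbp3 and 0.0211 for Igfbp5. With genes under the 25th percentile of level left out it was 0.0330 and 0.0397, and above the median level 0.0111 and 0.0148. Calls over all genes were also more in these settings, at 2232, 1925, 1297 and 1596, against 594. Igfbp5 also passed without Gld2 shRNA replicate 1 (adjusted p = 0.0327 in limma).

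Igfbp4, which is cleaved by pappalysin once it has bound an IGF, stood at 9.87 and 9.73 in the knockdown cultures and at 9.83 and 9.89 in the control cultures. The groups overlapped, and the log2 difference was -0.06 (95% interval -0.24 to 0.12, adjusted p = 0.627 in limma). Its sign turned with cyclic loess (0.05), with centring on named genes (0.0074) and without Gld2 shRNA replicate 2 (0.0072).

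**Figure D2:**
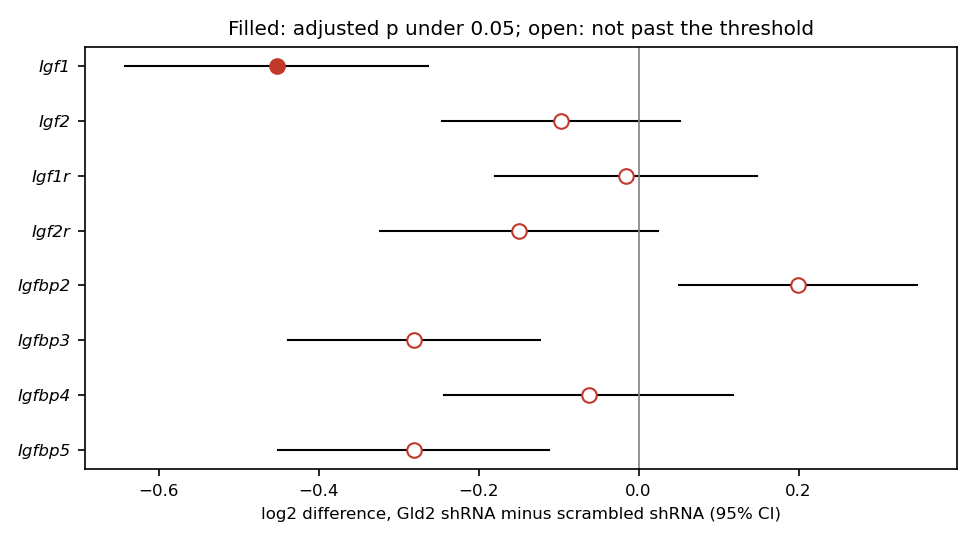
Log2 differences of the 8 IGF system genes, Gld2 shRNA minus scrambled shRNA, with 95% confidence intervals from limma's moderated standard errors, filled where the adjusted p over all genes was under 0.05. Igf1 (-0.45) is the filled point, the intervals of Igfbp3 and Igfbp5 lie below 0, that of Igfbp2 lies above 0, and the other intervals take in 0.

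A difference between genes within 1 array is free of any constant shift of that array, so 4 such pairs, chosen after their values were seen, were compared between the groups, 3 of members and 1 of Stc1 and Pappa, given further on. Igfbp2 minus Igfbp5, the chromosome 9 neighbours, was 1.49 and 1.66 in the knockdown cultures, against 1.09 and 1.10 in the control cultures, a shift of 0.48 on the log2 scale. Igfbp2 minus Igfbp3 was 1.76 and 1.82 in the knockdown cultures, against 1.28 and 1.34 in the control cultures, a shift that was also 0.48. Igf1r minus Igf1 was 1.25 and 1.31 in the knockdown cultures, against 0.83 and 0.86 in the control cultures, a shift of 0.44. In each of these pairs the groups did not overlap, and the shift was larger than the gap between cultures of 1 group. For the pairs with Igfbp2 the lack of overlap followed from the single genes. Both knockdown cultures lay above both controls for Igfbp2 and below them for Igfbp3 and Igfbp5. Shifts that vary with signal level are not removed by such a difference. With 2 cultures against 2, a two-sided exact permutation test cannot go below 0.333, and it gave p = 0.333 for each of the 4 pairs, also after adjustment over the pairs. Such a shift bears on unequal change of the genes of a pair and not on which of them changed.

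Gld2 shRNA replicate 2 lay below Gld2 shRNA replicate 1 for 7 of the 8 members, Igfbp2 being the exception, against 7414 of all 14497 genes. Against the mean of the controls, Igf1 was at -0.37 in replicate 1 and -0.54 in replicate 2, and Igfbp5 at -0.22 and -0.34. Igfbp3 differed little between the cultures in this measure, at -0.27 and -0.29. Over all genes the median distance from the control mean was 0.0891 in replicate 1 and 0.145 in replicate 2. Differences also varied with signal level over the whole array. The genes of level decile 6, that of Igf1, had a median log2 difference of -0.10, those of decile 9, with Igfbp3 and Igfbp5, -0.05, and those of decile 10, with Igfbp2, 0.0058. Igf1r and Igf2r lay in decile 8, whose median was -0.08, and Igf2 in decile 4, at 0.05. By genomic length, the genes of decile 9, with Igf1 and Igf2r, had a median of -0.09 and those of decile 10, with Igf1r, -0.12. With the trend of the values with length removed, Igf1 had a log2 difference of -0.36 (adjusted p = 0.0454 in limma).

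Of 69 other genes listed for the pathway, 54 had a probe set with that symbol alone, of which 6 fell, 0 rose and 48 did not pass, against 2.41% of all genes called lower and 1.69% called higher. At an unadjusted p under 0.05 in limma, 17 of the 54 were lower and 8 higher, against 16.2% and 9.24% of all genes. The median log2 difference was -0.05, against -0.02 over all genes. The other genes of the list, among them Irs2, were not analysed here.

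**Figure D3:**
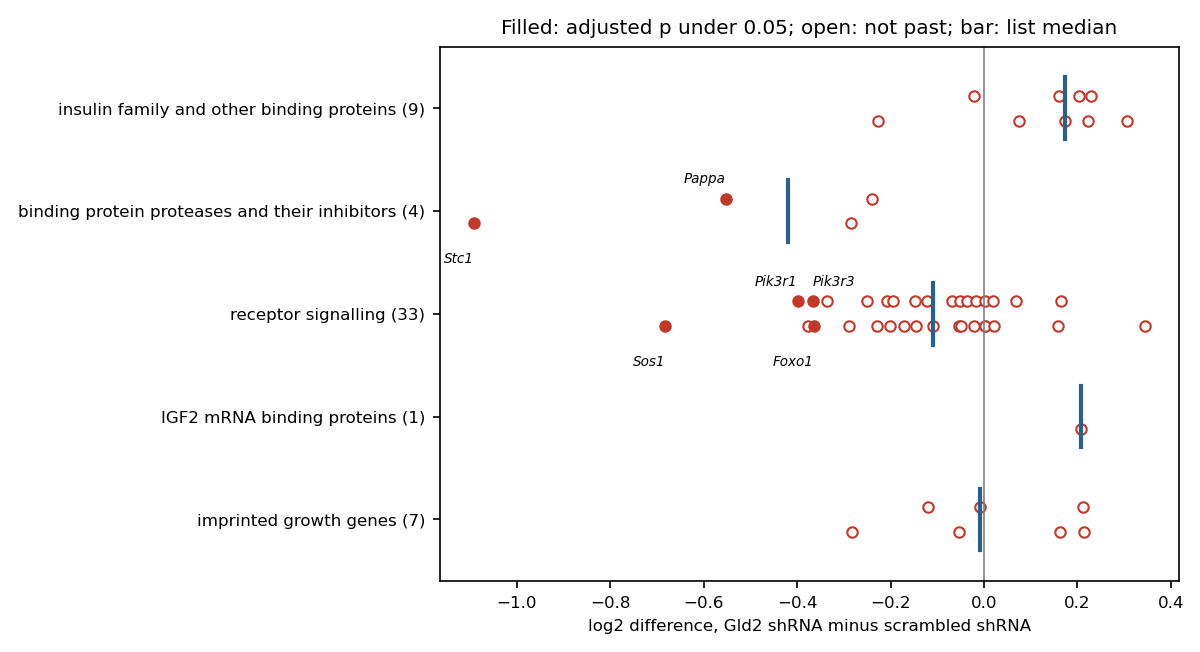
Log2 differences, Gld2 shRNA minus scrambled shRNA, of 54 other IGF pathway genes by role (number measured in brackets), filled and named where the adjusted p over all genes was under 0.05, with the list median as a bar. The filled points, Stc1, Pappa, Sos1, Pik3r1, Pik3r3 and Foxo1, lie below 0, and 7 of the 9 points of the insulin family list lie above 0 and are open.

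Genes that control the release of IGFs from binding proteins had 2 falls among 4 measured, with 0 rising and 2 not passing. Over all genes 2.41% were called lower and 1.69% higher. At an unadjusted p under 0.05 in limma, 4 of the 4 were lower and 0 higher, against 16.2% and 9.24% of all genes. Pappa encodes pappalysin 1, the protease that cleaves Igfbp4 and also Igfbp5. It stood at 9.33 and 9.30 in the knockdown cultures and at 9.95 and 9.78 in the control cultures, a log2 difference of -0.55 (standard error 0.0769, adjusted p = 0.0234 in limma). The Pappa transcript was thus at a fold of 0.682, while that of Igfbp4 did not pass and the groups overlapped. Stc1 encodes stanniocalcin 1, a glycoprotein that inhibits pappalysin, and stood at 8.10 and 7.95 in the knockdown cultures, against 9.25 and 8.99 in the control cultures. Its fold was 0.469 (log2 difference -1.09, adjusted p = 0.00660 in limma). Stc1 minus Pappa was -1.22 and -1.35 in the knockdown cultures and -0.70 and -0.79 in the control cultures, a shift of -0.54 on top of the fall of Pappa (exact permutation p = 0.333, the smallest that the design allows). The related inhibitor Stc2 (-0.28, adjusted p = 0.0824) and the protease Htra1 (-0.24, adjusted p = 0.158) did not pass, in limma. In all 4 genes both knockdown cultures lay below both controls, as they did in 34.5% of all genes.

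Of 33 measured genes of receptor signalling, 4 fell, 0 rose and 29 did not pass, with a median log2 difference of -0.11. Over all genes 2.41% were called lower and 1.69% higher. At an unadjusted p under 0.05 in limma, 12 of the 33 were lower and 3 higher, against 16.2% and 9.24% of all genes. Sos1, the exchange factor that activates RAS behind the receptor, stood at 9.42 and 9.29 in the knockdown cultures and at 10.10 and 9.98 in the control cultures. Its log2 difference was -0.68, a fold of 0.623 (adjusted p = 0.0118 in limma). Pik3r1 and Pik3r3, regulatory subunits of PI3 kinase, had log2 differences of -0.40 and -0.37 (adjusted p = 0.0459 and 0.0411 in limma), and the third such subunit, Pik3r2, was at 0.0013 with a 95% confidence interval from -0.19 to 0.19. Foxo1, a transcription factor that AKT holds out of the nucleus, stood at 10.84 and 10.78 in the knockdown cultures and at 11.17 and 11.18 in the control cultures (log2 difference -0.36, adjusted p = 0.0374 in limma). The docking protein genes Irs1 and Shc1, chosen after their values were seen, were at -0.29 (adjusted p = 0.0674) and 0.35 (0.0796) in limma, so that the adaptors had values on both sides of 0.

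These calls depended on single cultures. In limma with Benjamini-Hochberg adjustment, 14 genes of the pathway list passed without Gld2 shRNA replicate 1, 2 without Gld2 shRNA replicate 2 (Sos1 and Stc1), 0 without scrambled shRNA replicate 1 (10 at an unadjusted p under 0.05) and 1 without scrambled shRNA replicate 2 (Stc1). The differences of the 6 genes kept their sign in each of these fits. Without scrambled shRNA replicate 1, Stc1 was at -0.96 with an adjusted p of 0.0521. With the trend with gene length removed, Pappa, Sos1 and Stc1 passed, and Foxo1 (adjusted p = 0.0615), Pik3r1 (0.0608) and Pik3r3 (0.0618) did not, in limma.

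Insulin and the remaining binding proteins had values mostly above 0 with no call. Of 9 measured genes, 0 fell (0 lower at an unadjusted p under 0.05 in limma), 0 rose (4 higher by that rule, against 9.24% of all genes) and 7 had values above 0 (against 6699 of all 14497 genes), with a median of 0.17. Ins2 (0.31, adjusted p = 0.121) and Ins1 (0.20, adjusted p = 0.146, limma), which encode insulin and are so alike that probes of one may take up the other, lay in level decile 4, where the median of all genes was 0.05. Igfbp7, an IGFBP-related protein of low IGF affinity, was at 0.16 and the insulin receptor gene Insr at -0.23, both chosen after their values were seen and neither past the threshold. Igf2bp1, an RNA-binding protein of Igf2 mRNA, was at 0.21 (adjusted p = 0.128, limma).

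Of 7 measured imprinted growth genes, 0 rose and 0 fell, with 0 higher and 1 lower at an unadjusted p under 0.05 in limma. Mest, at -0.28 (adjusted p = 0.103), and H19, the non-coding neighbour of Igf2, at 0.21 (adjusted p = 0.198, limma), had the smallest p. H19 stood at 7.98 and 8.17 in the knockdown cultures and at 7.81 and 7.93 in the control cultures.

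Genes most like the 2 members of smallest p were found as those with the smallest distance over the 4 arrays after each gene was centred on its mean. For Igf1 these were Erbb4, a receptor for neuregulins (distance 0.0159 log2 units, log2 difference -0.46), and Itpr1, an inositol trisphosphate receptor (0.0204, log2 difference -0.44). For Igfbp3 they were Rchy1, a ubiquitin ligase gene (0.00986, log2 difference -0.28), and Myrip, which encodes a partner of Rab27 and myosins (0.0112, log2 difference -0.29). With 4 arrays of 2 groups, such nearness says little beyond a like difference between the groups.

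Markers of cells known to make IGFs and their binding proteins were set beside these results, and their part in them was not tested. For comparison with each marker list below, 2.41% of all genes were called lower and 1.69% higher. At an unadjusted p under 0.05 in limma, 16.2% of all genes were lower and 9.24% higher. RMA gives no value of 0, so no marker can stand there, and detection calls were not analysed here. For microglia, a source of Igf1, 10 of 11 measured markers had values above 0, with a median of 0.14, 0 past the threshold and 3 higher at an unadjusted p under 0.05 in limma. Their summed log2 level was 85.3 to 86.5 in the knockdown cultures and 84.1 to 84.2 in the control cultures. A summed level, here and below, adds the log2 values of the genes of a list and so grows with their number. All of these markers but Cd68 lay in level deciles 2, 3 and 4. Over the whole array the genes of these deciles had median log2 differences of 0.08, 0.10 and 0.05, in that order. The brightest microglia markers, Cd68 and C1qc, were at -0.02 and 0.23, and the list lay between percentiles 10.8 and 41.8 of level. Of 8 interneuron markers, 1 fell, the neuropeptide gene Vip (-0.43, adjusted p = 0.0417, limma), 0 rose and 7 did not pass, with a median of -0.11, 5 values below 0 and, at an unadjusted p under 0.05 in limma, 3 lower and 0 higher. Their summed level was 88.7 to 89.0 in the knockdown cultures and 89.7 to 89.9 in the control cultures. The brightest interneuron markers, the neuropeptide genes Sst and Npy, were at 0.07 and 0.04. The remaining markers, named after their values were seen, did not pass. The GABA synthesis genes Gad1 and Gad2 were at 0.01 and -0.24, and Slc32a1 was at -0.07. The transcription factor genes Dlx1 and Lhx6 were at -0.15 and -0.15.

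Markers of the cells known for Igfbp2 and Igf2 are given next, and their part in the values of these genes was not tested. Of 9 astrocyte markers, 1 fell, the gap junction gene Gja1 (-0.39, adjusted p = 0.0351, limma), and 8 did not pass, with a median of 0.05. Values lay above 0 for 5 and below 0 for 4, with 2 lower and 0 higher at an unadjusted p under 0.05 in limma. The summed log2 level of the list was 105.8 to 106.2 in the knockdown cultures against 106.3 to 106.4 in the control cultures. This sum was lower in the knockdown cultures although the list median lay above 0, and Gja1 had the largest difference of the list. The brightest astrocyte markers, Gfap and the glutamate transporter gene Slc1a3, were at 0.10 and -0.02. Of 5 choroid plexus markers none passed, with 0 also at an unadjusted p under 0.05 in limma, a median of 0.0046 and a summed level of 46.2 to 46.9 in the knockdown cultures against 46.4 to 46.7 in the control cultures. Ttr, the transthyretin gene that is most abundant in choroid plexus, was at 0.0046, and Clic6, the next brightest, at -0.18. Of 8 meningeal fibroblast markers none passed, with 1 higher and 1 lower at an unadjusted p under 0.05 in limma, a median of 0.01 and a summed level of 74.5 to 74.7 in the knockdown cultures against 74.7 to 75.0 in the control cultures. The brightest of these, the matrix proteoglycan genes Dcn and Ogn, were at -0.0032 and -0.19.

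Of 10 endothelial and mural markers none passed (3 higher and 1 lower at an unadjusted p under 0.05 in limma), with a median of 0.11 and a summed level of 79.1 to 80.1 in the knockdown cultures and 79.0 to 79.1 in the control cultures. The brightest, the pericyte genes Pdgfrb and Cspg4, were at -0.34 and 0.14. Of 6 markers of the oligodendrocyte lineage, 1 rose, Cnp (0.54, adjusted p = 0.0169, limma), and 0 fell. Cnp is also an interferon-induced gene, and the cause of its rise was not tested. At an unadjusted p under 0.05 in limma, 1 was higher and 1 lower, Mbp (-0.29), named after its value was seen. The transcription factor gene Olig1 was at 0.02. The list had a median of 0.07 and a summed level of 57.6 to 57.7 in the knockdown cultures against 57.0 to 57.1 in the control cultures. Of 8 neuron markers none passed (2 lower and 0 higher at an unadjusted p under 0.05 in limma), with a median of -0.06 and a summed level of 102.0 to 102.1 in the knockdown cultures against 102.6 to 102.7 in the control cultures. Vip and Gja1 did not pass in limma without Gld2 shRNA replicate 2 (adjusted p = 0.0845 and 0.0851), and Vip, Gja1 and Cnp did not pass without scrambled shRNA replicate 1, nor without replicate 2, with differences of the same sign in each of these fits.

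**Figure D4:**
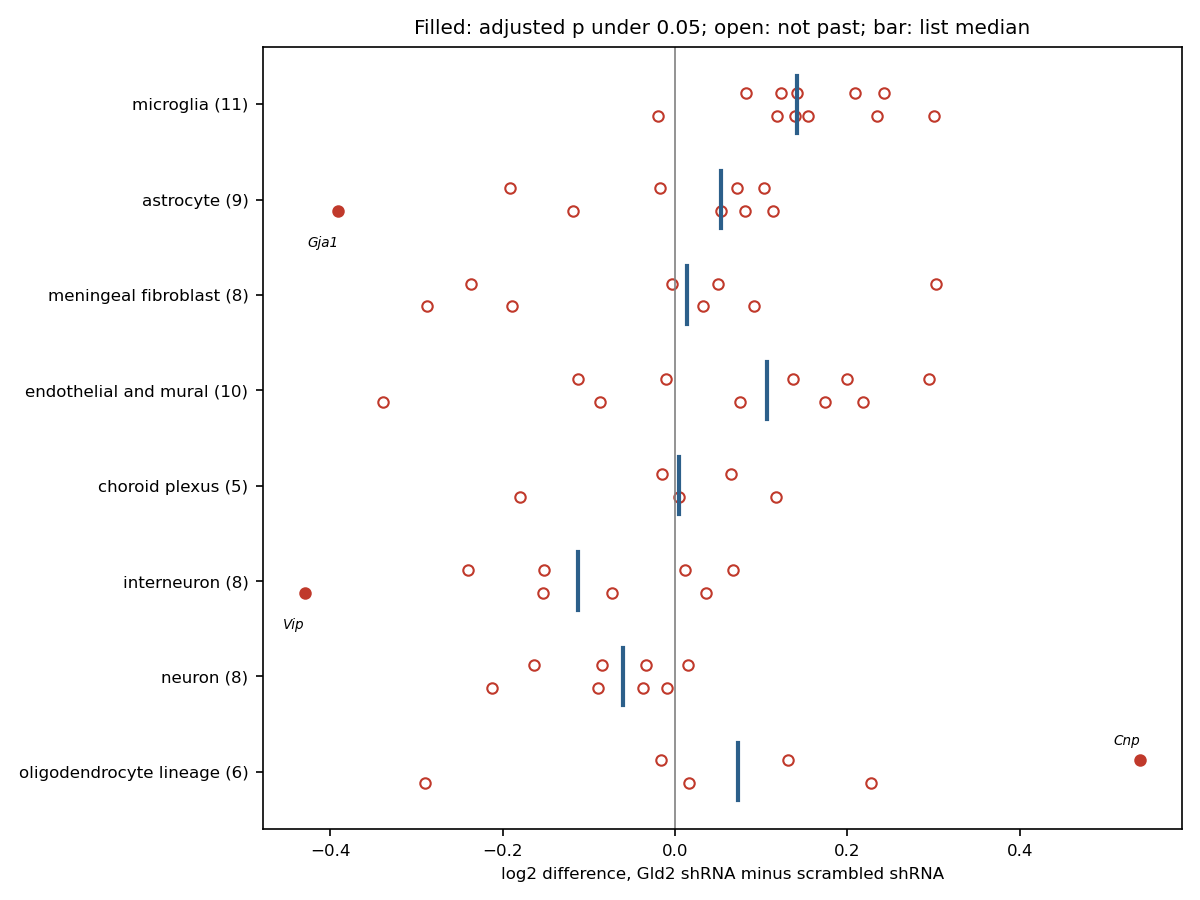
Log2 differences, Gld2 shRNA minus scrambled shRNA, of cell type markers by list (number measured in brackets), filled and named where the adjusted p over all genes was under 0.05, with the list median as a bar. Microglia markers lie mostly above 0 (median 0.14), interneuron markers mostly below (median -0.11), and Gja1, Vip and Cnp are the filled points.

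**Figure D5:**
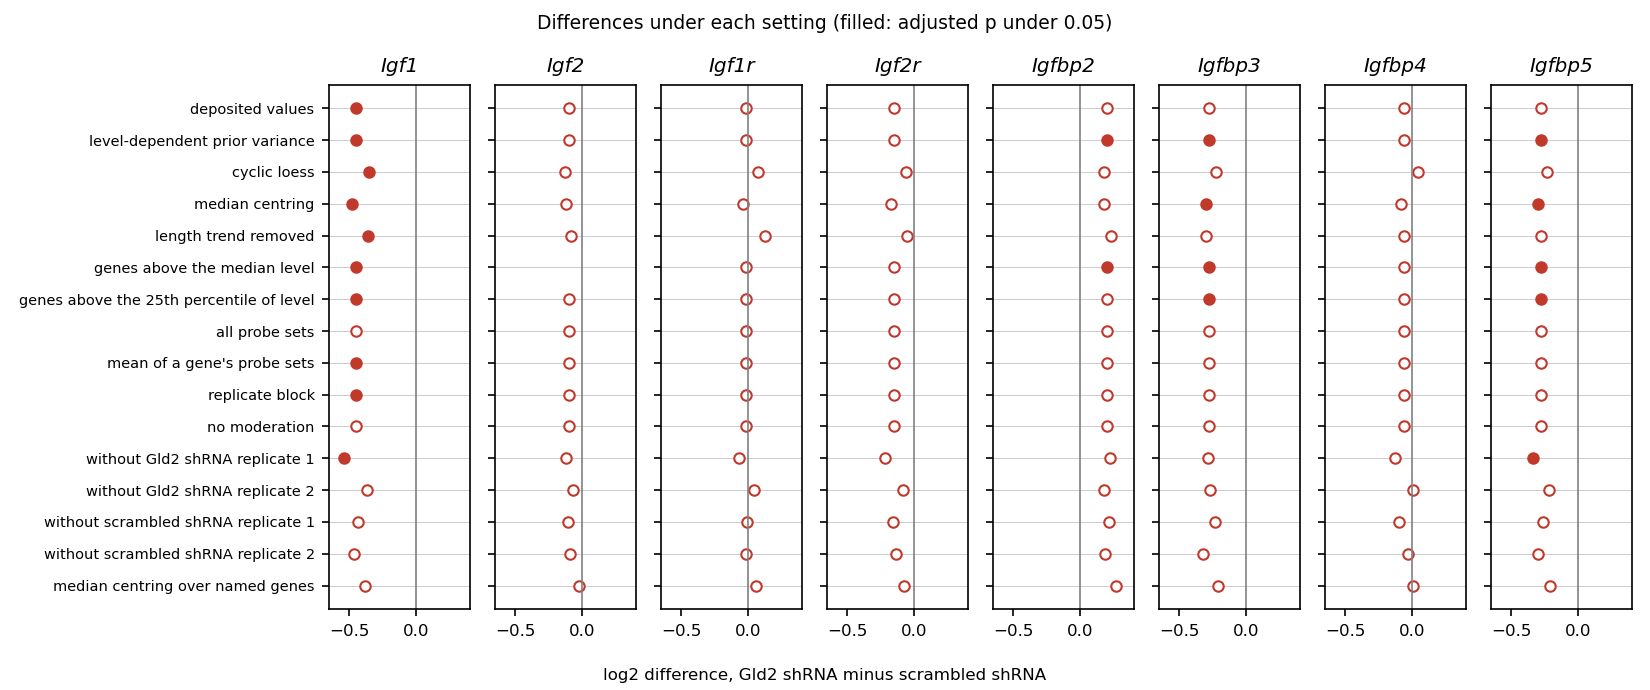
Log2 differences of the 8 IGF system genes, Gld2 shRNA minus scrambled shRNA, under each processing setting, filled where the adjusted p was under 0.05. Igf1, Igfbp3 and Igfbp5 stay below 0 and Igfbp2 above 0 in each setting, while Igf1r and Igfbp4 lie on both sides.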

How the data were processed

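The deposited values of 4 arrays are log2 expression, for which the authors used RMA (affy), per the submitters' processing notes. Those notes, as used here, give no settings, versions or genome build, and the log2 scale was read from the values (3.23 to 14.3). No further normalization was applied. Of 28826 probe sets, 15209 had 1 gene symbol in the platform annotation, 306 several and 13311 none. Per gene the probe set with the highest mean was used, which gave 14497 genes. Groups were compared by two-sided moderated tests (lmFit and eBayes, limma 3.58.1, R 4.3.3) with 2 residual and 3.96 prior degrees of freedom, Benjamini-Hochberg adjustment over all genes and a threshold of 0.05. The fit was tested on simulated data. The number of arrays limits the precision, and no batch or scan date was available to test.

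Members, pathway lists and markers were chosen with earlier results of these data known. Named were all members, Tent2, the pathway genes past the threshold, the 2 of smallest p in each role, the 2 brightest markers of a list and the nearest genes, and others where the text says so or where they passed. Alternatives were a level-dependent prior variance, cyclic loess, median centring, removal of a trend with gene length (lowess, span 0.3), filters at the median and 25th percentile of level, all probe sets, averaged probe sets per gene, a replicate block, no moderation and leaving out each culture. Centring on the median of named genes was chosen after seeing the data.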

Additional observations from a re-analysis of the deposited data

How the results depend on the processing

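Over the 14 alternatives (13 for Igf2, which lay below the median level) Igf1, Igf2, Igf2r, Igfbp2, Igfbp3 and Igfbp5 kept their direction, and Igf1 was past the threshold in 9. Igf1r reversed to 0.0708 with cyclic loess, 0.127 with the length trend removed and 0.0543 with arrays centred on the median of named genes, a setting chosen after seeing the data, and Igfbp4 reversed to 0.0453, with cyclic loess, and 0.00742, with that centring. Over the fits that leave out 1 culture, Igf1r ran from -0.0714 to 0.0400 and Igfbp4 from -0.132 to 0.00722, with the values above 0 coming without Gld2 shRNA replicate 2.

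The number of genes past the threshold in limma is given for all genes, for the 8 members and for the pathway list, in that order, against 594, 1 and 6 in the deposited values. It was 2232, 4 and 19 with a level-dependent prior variance, 1925, 3 and 14 with median centring, 1596, 4 and 15 above the median level, 1297, 3 and 10 above the 25th percentile, 313, 0 and 2 with all probe sets, 1, 0 and 0 without moderation, and 312, 0 and 2 with centring on named genes. At an unadjusted p under 0.05, 4 members passed in each of the settings with 0 among these, and 12 pathway genes without moderation. The pathway count was 3 with the length trend removed. Calls split into 558 higher and 1367 lower with median centring, 218 and 94 with centring on named genes, 266 and 250 with the length trend removed and 197 and 116 with all probe sets, against 245 and 349. Leaving out each culture gave 85 to 2689 genes, 0 to 2 members and 0 to 14 pathway genes: without Gld2 shRNA replicate 1 or 2 there were 2689 (1283 higher, 1406 lower) and 271 genes (172 higher, 99 lower), and without scrambled shRNA replicate 1 or 2 there were 85 (82 higher, 3 lower) and 92 (85 higher, 7 lower). The remaining culture of a group was then assumed to vary like the other group. The cause of these shifts was not tested.

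With the final digit of the titles as a replicate block there were 565 genes, 1 member and 7 pathway genes. Same-numbered cultures had deviations correlated at 0.106 over all probe sets, and with 2 pairs the numbers are not known to pair the cultures. No detection calls were used, so signal over background was not assessed.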
